A study of Homo sapiens with 4 samples.

Results

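The 8 genes described here are 7 caspases, CASP1, CASP4, CASP2, CASP6, CASP8, CASP9 and CASP10, and GSDMD, the gene of gasdermin D. They were taken from the deposited expression table by gene symbol, and all 8 were found among its 18806 symbols. RNA-seq was performed in Huh7, a human hepatocellular carcinoma line, in cells grown from 1 Cas9-expressing clone, transduced with a lentiviral guide RNA and selected with hygromycin B. Cells with the non-targeting guide (sgNS, 2 libraries, genotype WT in the labels) were compared with cells that received a guide against METTL16 (METTL16 KO, 2 libraries, called a METTL16 knockdown in the labels). METTL16 is an RNA m6A methyltransferase. Both groups carry Cas9 and a lentiviral guide vector, and each comparison rests on a single Cas9 clone. The study describes the 2 libraries of a group as biological replicates, but whether the cultures were transduced separately is not given, and the labels do not say whether both METTL16 KO libraries carry the same guide, so that the p-values measure only the spread between these libraries.

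Caspases are cysteine proteases that are made as inactive zymogens and cut their substrates after aspartate. The initiator caspases CASP8 and CASP10 are activated at death receptors, CASP9 at the apoptosome after cytochrome c leaves mitochondria, and CASP2 at the PIDDosome. CASP8, CASP9 and CASP10 activate executioner caspases, among which CASP6 cleaves nuclear lamins. The inflammatory caspases CASP1 and CASP4 respond to inflammasomes and to cytosolic lipopolysaccharide. They cleave gasdermin D, whose released N-terminal part forms pores in the plasma membrane in pyroptosis. Activity of these enzymes is set by cleavage, which is not measured by RNA-seq, and the values below are transcript levels.

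Values are TPM, a unit in which read numbers are divided by transcript length and scaled to the same total in each library, so that levels can be set side by side between genes. TPM keeps no read counts, and the depth of each library is unknown. The targeted gene METTL16 was listed at 26.3 and 25.1 TPM in the sgNS libraries, against 17.6 and 18.8 TPM in METTL16 KO, and its log2 fold change (log2FC, METTL16 KO minus sgNS) was -0.50 (standard error, SE, 0.0617, adjusted p = 2.4e-05 from limma). Of 8 hepatocyte markers, 7 were higher and 1 lower at an adjusted p under 0.05 from limma, against 50.1% and 25.6% of all genes tested. The rise of SERPINA1 was lost after median-ratio scaling (0.0044, adjusted p = 0.88 from limma). The summed level of the 8 went from 15944 and 16099 TPM (sgNS) to 29806 and 29376 TPM (METTL16 KO). AFP alone went from 1737 and 1793 TPM to 10387 and 10197 TPM. The log2FCs of AFP and FGB were 2.54 and 1.84. Of 10 leukocyte markers, MS4A1 was listed at 0 in all 4 libraries, and PTPRC, CSF1R, ITGAM and CD3E did not exceed 0.48 TPM in any. AIF1 lay between 0.50 and 1.28 TPM, and TYROBP was listed at 1.22 TPM in sgNS replicate 1 and at 0 elsewhere. The summed level of the 10 went from 1518 and 1558 TPM to 921 and 935 TPM, nearly all of it LYZ, which fell by 0.74 on the log2 scale, while CD68 rose with a log2FC of 1.49. CD14 had a log2FC of 0.59 (adjusted p = 0.028 from limma), a call that was lost after median-ratio scaling (0.44, adjusted p = 0.09 from limma) and without sgNS replicate 2 (0.41, adjusted p = 0.15 from limma), METTL16 KO replicate 1 (0.61, adjusted p = 0.077 from limma) or METTL16 KO replicate 2 (0.57, adjusted p = 0.095 from limma). The cells were grown from 1 Huh7 clone, so the leukocyte markers are read as transcripts of that line. In bulk RNA, fewer cells that express a gene and less of its RNA per cell cannot be told apart.

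In METTL16 KO all 7 caspase transcripts were higher and GSDMD was lower than in sgNS. CASP1 and CASP4, the inflammatory pair, changed most, with log2FCs of 3.06 and 1.56. CASP8 and CASP9 followed at 0.73 and 0.69, whereas CASP10, CASP2 and CASP6 changed by 0.38 or less. GSDMD fell by 0.19. The log2FC is a difference of mean log2(TPM + 0.1), a scale that shrinks changes of low transcripts, and was tested with limma over 11971 genes whose mean reached 1 TPM, with Benjamini-Hochberg adjustment over all of them.

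At an adjusted p under 0.05 from limma, 7 of the 8 genes were called higher and 1 was called lower. Of all genes tested, 50.1% were called higher and 25.6% lower, and these shares are the background of the counts over the 8 genes, their neighbours and the lists. The 2 groups did not overlap in any of the 8 genes, with 7 higher and 1 lower, where 56.8% of all genes tested were higher and 30.7% lower without overlap. With a log2FC of at least 1 required as well, 2 of the 8 were called higher, CASP1 and CASP4, as were 7.7% of all genes tested. The median log2FC of the 8 genes was 0.53, and that of all genes tested was 0.16. All 8 passed the filter on low values, but CASP1 did so only through METTL16 KO, as its sgNS mean of 0.195 TPM lies below the minimum of 1.

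The median of 0.16 shows that the typical gene was higher in METTL16 KO on the deposited scale, and changes are therefore also read relative to it. Median-ratio scaling divides each library by its median ratio to a common reference and brought that median to -0.0016. CASP1, CASP4, CASP8 and CASP9 were then still called higher and GSDMD was still called lower, while CASP2, CASP6 and CASP10 were not called (limma adjusted p-values 0.08, 0.23 and 0.064). Of all genes tested, 36.4% were called higher and 36.5% lower after this scaling. Relative to the median gene, the log2FC was 2.90 for CASP1, 1.40 for CASP4, 0.57 for CASP8, 0.53 for CASP9, 0.21 for CASP10, 0.10 for CASP2, 0.07 for CASP6 and -0.36 for GSDMD.

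**Figure D1:**
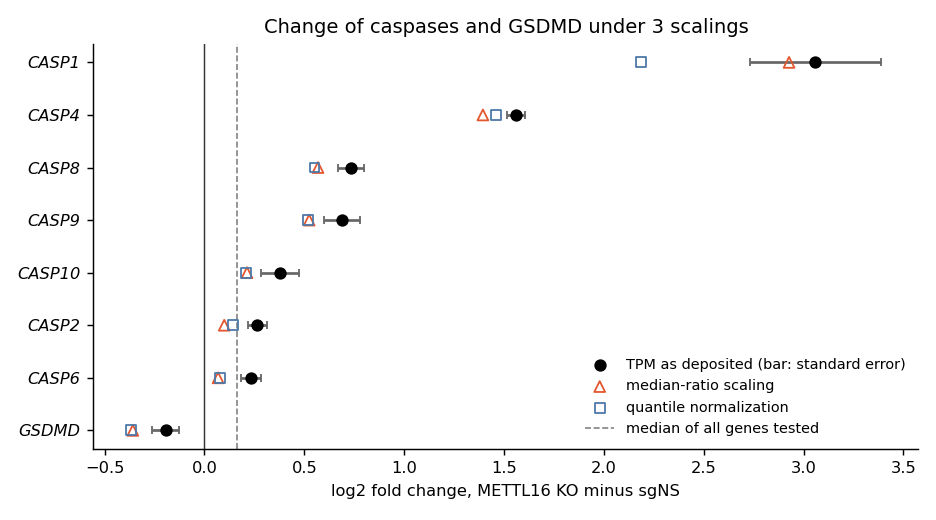
Log2 fold change (METTL16 KO minus sgNS) of the 7 caspases and GSDMD on deposited TPM (black, with bars of 1 standard error), under median-ratio scaling (triangles) and quantile normalization (squares). The dashed line is the median of all genes tested, 0.16. CASP1 and CASP4 lie farthest to the right under each scaling, CASP2 and CASP6 lie close to the median gene, and GSDMD lies to the left of 0.

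CASP4 encodes the human receptor protease for cytosolic lipopolysaccharide, which cleaves gasdermin D directly. It was the most abundant of the 8 transcripts in both groups, at 51.3 and 48.9 TPM in the sgNS libraries, against 150.2 and 145.5 TPM in METTL16 KO. The group means were 50.1 ± 1.68 and 147.8 ± 3.29 TPM (SD, n = 2 per group), and both METTL16 KO libraries lay far above both sgNS libraries. The log2FC was 1.56 (SE 0.0431, adjusted p = 2.6e-10 from limma), and 2.87% of all genes tested had a log2FC at least as high. CASP4 lies on the minus strand at chr11:104942866-104969366 of GRCh38.

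CASP1 encodes the inflammasome protease that matures interleukin-1 beta and interleukin-18. It was listed at only 0.27 and 0.12 TPM in the sgNS libraries, against 2.58 and 2.01 TPM in METTL16 KO. The groups did not overlap, but in METTL16 KO too it remained the lowest of the 8 transcripts. The log2FC was 3.06 (SE 0.328, adjusted p = 7.9e-06 from limma). This size depends on the pseudocount, with 1.46 for a pseudocount of 1 and 3.58 for 0.01, and CASP1 passed an adjusted p of 0.05 with both. CASP1 lies at chr11:105025397-105035250 on the minus strand, upstream of CASP4 on that strand.

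Within a library, the TPM of CASP1 was 0.00526 and 0.00245 times that of CASP4 in sgNS and 0.0172 and 0.0138 times in METTL16 KO. The log2 ratio on TPM + 0.1 rose by 1.50 between the groups without overlap (SD within groups 0.372), where an exact two-sided permutation test of 2 against 2 libraries gave p = 0.33, the smallest it can give. With a pseudocount of 1 the difference was -0.08, so that the order of the 2 changes rests on how the very low sgNS values of CASP1 are treated.

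**Figure D2:**
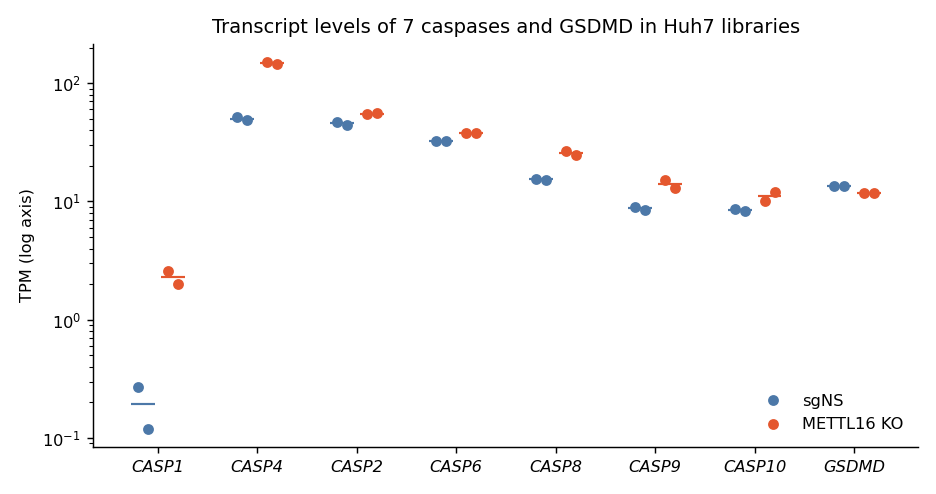
TPM (log axis) of each of the 8 genes in the 2 sgNS libraries (blue) and the 2 METTL16 KO libraries (orange), where points are libraries and short lines are group means. The groups are separate for each gene, CASP4 is the most and CASP1 the least abundant in both groups, and GSDMD is the only gene whose METTL16 KO points lie below its sgNS points.

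The genes beside CASP1 and CASP4 form a cluster of inflammatory caspase genes and of genes for proteins that hold little more than a caspase recruitment domain (CARD). All 4 other genes tested within 500 kb of CASP1 were called higher, namely CASP4, CASP5, CARD16 and CARD18, where 50.1% of all genes tested were. CASP5 and CARD16, like CASP1, passed the filter on low values only through METTL16 KO, so a fall could not have been seen in them. CASP5, a further inflammatory caspase that senses lipopolysaccharide, was listed at 0 TPM in each sgNS library, against 3.63 and 3.19 TPM in METTL16 KO. CARD16, whose product resembles the CARD of CASP1, was listed at 0.52 and 0.41 TPM in the sgNS libraries, against 9.36 and 8.66 TPM in METTL16 KO, a log2FC of 4.02 (SE 0.169). CARD18 went from 2.64 and 2.48 TPM to 4.94 and 5.60 TPM, a log2FC of 1.01. CARD17 and CASP12, which lie in the same family, did not exceed 0.26 TPM in any library and were not tested. The summed level of the 7 cluster genes was 54.7 and 52.2 TPM in sgNS and 171 and 165 TPM in METTL16 KO, most of it CASP4 in every library.

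Similar neighbours can share reads. Of the 4959 distinct windows of 1 read length in the GENCODE transcripts of CASP1, 50 (1.01%) also occur in a transcript of CARD16, and none of the windows of CASP4, CASP5, CASP2, CASP6, CASP9 or GSDMD occurs in a transcript of another gene. The same 50 windows are 3% of the 1665 windows of CARD16. For CASP8 the share was 2.21%, with a gene annotated without a symbol, and for CASP10, with GBP4, it was 0.0537%. Windows were compared without mismatches, and assignment of the reads themselves was not examined.

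**Figure D3:**
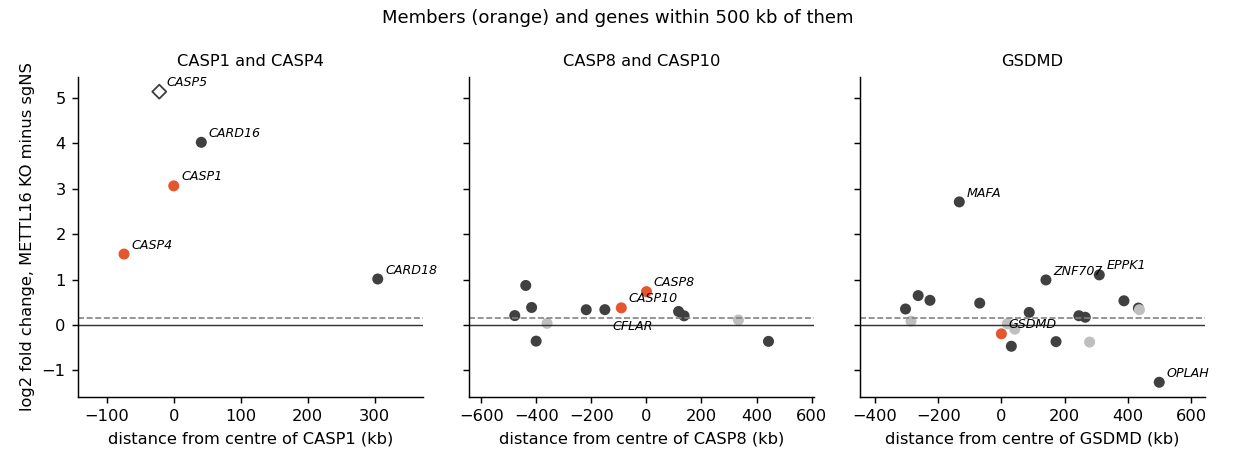
Log2 fold change of every tested gene within 500 kb of CASP1, CASP8 and GSDMD against the distance of its centre from the centre of that gene (kb). Orange points are genes of the 8, dark points are other genes past an adjusted p of 0.05 and light points are the rest, the dashed line is the median of all genes, and the open diamond is CASP5, whose height depends on the pseudocount because it is listed at 0 in sgNS. The genes around CASP1 all lie above the dashed line. So do CASP2 and its tested neighbours GSTK1, ZYX and EPHA1, which are not drawn. The genes around CASP8 and GSDMD lie on both sides of the line. CASP1, CASP5, CARD16 and MAFA passed the filter on low values only through METTL16 KO, so a fall could not have been seen in them.

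CASP8 and CASP10 are initiator caspases of the death-receptor complex and lie side by side on the plus strand of chromosome 2, at chr2:201233443-201361836 and chr2:201182872-201229428. CASP8 was listed at 15.5 and 15.2 TPM in the sgNS libraries, against 26.7 and 24.5 TPM in METTL16 KO, a log2FC of 0.73 (SE 0.0644, adjusted p = 1.6e-06 from limma). CASP10 was listed at 8.67 and 8.35 TPM in the sgNS libraries, against 10.2 and 12.1 TPM in METTL16 KO, with a log2FC of 0.38 (SE 0.0943, adjusted p = 0.0037 from limma). The METTL16 KO libraries of CASP10 differed more from each other than its sgNS libraries, and without METTL16 KO replicate 2 its log2FC was 0.25, with an adjusted p of 0.068 from limma. The ratio of CASP8 to CASP10 was 1.79 and 1.82 in sgNS and 2.63 and 2.03 in METTL16 KO, a log2 difference of 0.36 (SD within groups 0.186) without overlap. The exact two-sided permutation test again gave its smallest p of 0.33, so a larger change of CASP8 than of CASP10 was not shown by it.

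CFLAR, which encodes the catalytically inactive relative of CASP8 that limits its activation, lies beside both and rose with a log2FC of 0.34. Of the 12 genes tested within 500 kb of CASP8, 8 were called higher and 2 lower, with a median of 0.25. Over all genes tested, 50.1% were called higher and 25.6% lower. The largest change among the 12 was in CLK1, a splicing kinase gene, with a log2FC of 0.87.

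CASP9, the protease of the apoptosome, was listed at 8.99 and 8.45 TPM in the sgNS libraries, against 15.2 and 13.1 TPM in METTL16 KO. Both METTL16 KO values lay above both sgNS values, and the log2FC was 0.69 (SE 0.0882, adjusted p = 3.2e-05 from limma). With each gene's own spread in place of the shared one, the adjusted p was 0.053. CASP9 lies on the minus strand at chr1:15490832-15526534. Of 12 tested genes within 500 kb, 7 were called higher and 2 lower, against 50.1% and 25.6% of all genes tested. The largest change among these neighbours was in TMEM82, which fell by 0.92.

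CASP2, the caspase of the PIDDosome, was the second most abundant of the 8 genes in both groups, at 47.2 and 44.7 TPM in the sgNS libraries, against 54.8 and 55.5 TPM in METTL16 KO. The log2FC was 0.26 (SE 0.048, adjusted p = 4.4e-04 from limma), and 41.6% of all genes tested had a log2FC at least as high. CASP6 was listed at 32.2 TPM in each sgNS library, against 37.7 and 37.9 TPM in METTL16 KO, a log2FC of 0.23 (SE 0.0493, adjusted p = 0.0013 from limma), and 44.1% of all genes tested had a log2FC at least as high. The replicates of CASP6 were close to each other, but a change of this size is near that of the median gene. CASP2 lies on the plus strand at chr7:143288215-143307696, where all 3 tested neighbours were higher and EPHA1 changed most, with 1.32. CASP6 lies on the minus strand at chr4:109688622-109703583, where 3 of 6 tested neighbours were higher and 3 lower, and EGF fell by 2.17. Over all genes tested, 50.1% were called higher and 25.6% lower.

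GSDMD was listed at 13.5 and 13.6 TPM in the sgNS libraries, against 11.8 and 11.9 TPM in METTL16 KO. The 4 values lay close together, and the groups did not overlap. The log2FC was -0.19 (SE 0.0687, adjusted p = 0.024 from limma), so that the substrate transcript fell while those of the inflammatory caspases rose. The call did not hold with every library left out, since the adjusted p from limma was 0.06 without sgNS replicate 2, 0.1 without METTL16 KO replicate 1 and 0.091 without METTL16 KO replicate 2, at log2FCs of -0.19, -0.19 and -0.20. GSDMD lies on chromosome 8 at chr8:143553207-143563062. Of its 20 tested neighbours, 12 were called higher and 3 lower, with a median of 0.31, against 50.1% and 25.6% of all genes tested. The largest changes among these neighbours were those of MAFA, at 2.71, and OPLAH, at -1.26. MAFA passed the filter on low values only through METTL16 KO. The TPM of CASP4 was 3.81 and 3.6 times that of GSDMD in sgNS and 12.8 and 12.3 times in METTL16 KO, a pair chosen after its values were seen.

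In sgNS the order of the mean levels was CASP4, CASP2, CASP6, CASP8, GSDMD, CASP9, CASP10 and CASP1. The lowest value of each gene lay above the highest of the next, except for CASP9 and CASP10, where CASP9 was higher within each library but the lower CASP9 value (8.45 TPM) lay below the higher CASP10 value (8.67 TPM). In METTL16 KO CASP9 moved above GSDMD, and GSDMD and CASP10 could not be ordered, because the 2 CASP10 values lay on either side of those of GSDMD. The 7 caspases summed to 164 and 158 TPM in sgNS and to 297 and 291 TPM in METTL16 KO. CASP1 and CASP4 made up 31.4% and 31.1% of that sum in sgNS and 51.4% and 50.8% in METTL16 KO. The share of the initiators CASP2, CASP8, CASP9 and CASP10 went from 49.0% and 48.6% to 35.9% and 36.2%, and that of CASP6 from 19.6% and 20.4% to 12.7% and 13.0%. These shares do not change when a library is divided by a single factor, but they can change under quantile normalization.

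Promoter sequence is shown for 3 of the 8 genes because they differ most in response among those for which RefSeq (GRCh38.p14) gave a sequence, CASP4 with the largest rise, CASP8 with an intermediate one and CASP6 with the smallest. CASP2, CASP4, CASP6, CASP8 and CASP9 had an entry. Each sequence runs 5′ to 3′ on the strand of the gene, from 250 bases before to 50 bases after the transcript start. Capitals mark matches on either strand to GAAANNGAAA (an interferon regulatory factor pattern) or GGGANNNNCC (an NF-kB pattern), and no matches overlap. Of 35116 promoters of the same length, 3.57% hold the first and 25.6% the second.
CASP4, chr11:104968525-104968824, minus strand: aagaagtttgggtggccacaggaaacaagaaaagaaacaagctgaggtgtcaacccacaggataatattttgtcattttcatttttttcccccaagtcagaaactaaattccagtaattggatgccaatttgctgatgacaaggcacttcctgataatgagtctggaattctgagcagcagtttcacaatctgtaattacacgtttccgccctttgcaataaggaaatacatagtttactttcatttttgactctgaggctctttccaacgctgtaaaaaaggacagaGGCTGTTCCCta
CASP8, the first of 3 entries, chr2:201233213-201233512, plus strand: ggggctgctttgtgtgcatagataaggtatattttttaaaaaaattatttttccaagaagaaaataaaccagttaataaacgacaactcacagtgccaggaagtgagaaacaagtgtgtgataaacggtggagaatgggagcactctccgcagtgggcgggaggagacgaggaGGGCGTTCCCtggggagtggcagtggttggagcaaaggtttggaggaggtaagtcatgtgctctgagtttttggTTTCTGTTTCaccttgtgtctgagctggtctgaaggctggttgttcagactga
CASP6, chr4:109703396-109703695, minus strand: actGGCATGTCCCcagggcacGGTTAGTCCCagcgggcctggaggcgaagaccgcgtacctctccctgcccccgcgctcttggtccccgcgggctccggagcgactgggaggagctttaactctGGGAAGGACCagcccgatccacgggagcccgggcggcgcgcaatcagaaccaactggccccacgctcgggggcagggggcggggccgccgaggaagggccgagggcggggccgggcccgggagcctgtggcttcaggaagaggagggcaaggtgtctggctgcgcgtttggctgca

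The CASP4 window holds 1 NF-kB pattern, which begins 38 bases past the start, and no match to the other pattern. In the CASP8 window each pattern occurs once, with its first base at -77 for the NF-kB pattern and -3 for the interferon regulatory factor pattern, counted from the start. The other 2 entries of CASP8 hold neither. The CASP6 window holds 3 NF-kB patterns. GC content was 39.7% for CASP4, 46.3% for CASP8 and 72.0% for CASP6. CASP4 and CASP6, with the largest and the smallest rise among genes with a sequence, both have the NF-kB pattern and not the other. The number of matches differs, with 1 in CASP4 and 3 in CASP6. No entry of CASP9 holds either pattern. CASP2 has no match in its entry at chr7:143288101-143288400 and 1 NF-kB pattern, at -111, in that at chr7:143289338-143289637. The window of CASP5, which is no member of the 8, holds 2 overlapping interferon regulatory factor patterns, at -250 and -244, and 1 NF-kB pattern. These matches are descriptions of letters, and binding was not measured.

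Genes that act around the 8 were taken from 12 lists, which hold 65 genes of the table, of which 46 were tested. Of these 27 were called higher and 8 lower, or 22 and 12 after median-ratio scaling. The shares over all genes tested were 50.1% and 25.6%, or 36.4% and 36.5% after that scaling. Among the other gasdermins, GSDMB rose with a log2FC of 1.27, while DFNA5 (GSDME, a gasdermin activated by caspase cleavage in apoptosis) fell by 0.22 and DFNB59 (PJVK) by 0.51 (limma adjusted p-values 0.011 and 0.042). The DFNA5 call was lost without METTL16 KO replicate 1 (-0.19, adjusted p = 0.096 from limma). The DFNB59 call was lost without sgNS replicate 2 (-0.36, adjusted p = 0.23 from limma), METTL16 KO replicate 1 (-0.57, adjusted p = 0.067 from limma) or METTL16 KO replicate 2 (-0.44, adjusted p = 0.13 from limma). GSDMA and GSDMC were listed at 0, as was CASP14, a caspase of keratinocytes.

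Upstream of CASP1, 7 of 13 listed inflammasome genes had a mean below 1 TPM. NLRP3, NLRP6, NLRC4, AIM2, MEFV and IFI16 stayed below 0.5 TPM in each library and were not tested. PYCARD, the adaptor that links sensors to CASP1, was listed at 0 and 1.30 TPM in the sgNS libraries, against 0.12 and 0.55 TPM in METTL16 KO, with overlapping groups. NEK7, the kinase that licenses NLRP3, and NAIP, the receptor that pairs with NLRC4, were listed at 40.7 to 43.7 TPM and at 4.83 to 5.89 TPM over the 4 libraries and were not called (limma adjusted p-values 0.15 and 0.76). The sensor NLRP1 rose with a log2FC of 0.37, and of the peptidases that hold it inactive DPP9 rose with 0.64 and DPP8 fell by 0.56. CARD8, a sensor related to NLRP1, had a log2FC of -0.11 (adjusted p = 0.19 from limma) and was called lower after median-ratio scaling (-0.28, adjusted p = 0.0059 from limma). The CASP1 substrate IL1B did not exceed 0.33 TPM in any library. NINJ1, which ruptures the membrane after gasdermin pores form, was listed at 108 and 105 TPM in the sgNS libraries, against 107 and 102 TPM in METTL16 KO, with overlapping groups. It was not called on deposited TPM (log2FC -0.02), but after median-ratio scaling it was called lower at -0.19.

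The guanylate-binding proteins, interferon-induced GTPases that recruit CASP4 to bacteria, were represented by 5 listed genes, of which 3 were tested and called higher. GBP3 passed the filter only through METTL16 KO, and GBP4 and GBP5 did not exceed 0.05 TPM in any library and were not tested. GBP1 went from 1.17 and 0.96 TPM (sgNS) to 12.9 and 12.1 TPM (METTL16 KO), a log2FC of 3.44, and GBP3 and GBP2 rose with 3.10 and 1.24. Of the transcription factors listed, IRF1, a driver of CASP1 transcription, rose from 4.92 and 4.52 TPM to 16.05 and 16.64 TPM, a log2FC of 1.77. IRF2, a driver of GSDMD transcription, rose with 0.80, and RELA, a subunit of NF-kB, with 0.66.

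Upstream of CASP9, APAF1, the scaffold of the apoptosome, was listed at 23.3 and 23.8 TPM in the sgNS libraries, against 22.7 and 22.1 TPM in METTL16 KO. It was not called on deposited TPM (adjusted p = 0.28 from limma) but was called lower after median-ratio scaling (-0.24, adjusted p = 0.0032 from limma). The mitochondrial proteins that relieve caspase inhibition, HTRA2 and DIABLO, rose with log2FCs of 0.58 and 0.32, and ENDOG with 0.38. XIAP, a direct inhibitor of CASP9, had a log2FC of 0.07 (adjusted p = 0.36 from limma), which turned to -0.09 after median-ratio scaling. BIRC3 and BIRC2, whose products keep CASP8 from activation at tumor necrosis factor receptors, rose with 3.50 and 0.33, and BIRC3 went from 0.58 and 0.61 TPM to 7.79 and 7.69 TPM. BIRC3 passed the filter on low values only through METTL16 KO, so a fall could not have been seen in it. SERPINB9, the inhibitor of granzyme B, rose with 2.22. RIPK1, the kinase that meets CASP8 in the same complexes and is cut by it, rose with 0.78. Of the pair that activates CASP2, PIDD1 fell by 0.56 and CRADD had a log2FC of 0.34 (adjusted p = 0.027 from limma). The CRADD call was lost after median-ratio scaling (0.17, adjusted p = 0.23 from limma) and without METTL16 KO replicate 2 (0.13, adjusted p = 0.34 from limma), sgNS replicate 1 (0.36, adjusted p = 0.07 from limma) or sgNS replicate 2 (0.31, adjusted p = 0.11 from limma), and without METTL16 KO replicate 1 the log2FC was 0.55.

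Transcripts of caspase substrates went both ways, with 3 called higher and 4 lower of 8 tested and a median log2FC of -0.19. Over all genes tested, 50.1% were called higher and 25.6% lower. LMNB1 and LMNA, which encode nuclear lamins, fell by 0.73 and 0.26, and PARP1, a DNA repair enzyme cut in apoptosis, fell by 0.29. DFFA, the inhibitor of the DNA-fragmenting nuclease, rose with 0.37.

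**Figure D4:**
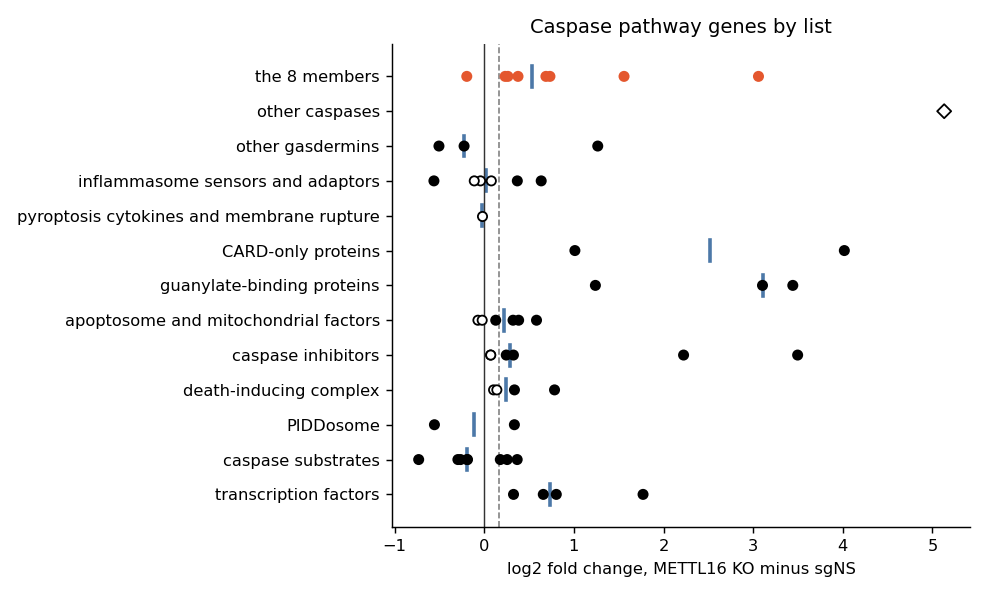
Log2 fold change (METTL16 KO minus sgNS) of each tested gene of the 8 (orange) and of the 12 lists around them, filled where the adjusted p from limma was under 0.05 and open where it was not. Blue bars are medians, the dashed line is the median of all genes, 0.16, and the open diamond is CASP5, listed at 0 in sgNS. Large rises are seen among the CARD-only and guanylate-binding proteins and in BIRC3 and SERPINB9, and the caspase substrates lie on both sides of 0, from -0.73 for LMNB1 to 0.37 for DFFA. CASP1, CASP5, CARD16, GBP3 and BIRC3 passed the filter on low values only through METTL16 KO.

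The pattern of CASP1, the gene of the 8 with the largest change, was compared with that of every gene tested by the Euclidean distance of the 4 log2(TPM + 0.1) values. The nearest were SLC17A4, an anion transporter gene, at a distance of 0.34, DLX2, a homeobox gene, at 0.52, and GBP3, at 0.52. Like CASP1, each of them passed the filter on low values only through METTL16 KO. Over 4 libraries in 2 groups such likeness is a description of level and fold alone.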

How the data were processed

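RNA-seq libraries of Huh7 cells (2 sgNS, 2 METTL16 KO) were analysed. Per the study's methods, the authors used Cutadapt for trimming, STAR for alignment to GRCh38 and RSEM for gene levels, with versions and annotation not given in the sources used here. The deposited values, named RPKM in the methods, sum to 1000000 in each library and were treated as TPM values. Columns were assigned to samples by name, and depth is unknown. From TPM, log2(TPM + 0.1) of 11971 genes (mean of at least 1 TPM) was fitted with limma 3.58.1 in R 4.3.3. The fit used eBayes with trend and no block, with Benjamini-Hochberg adjustment over all genes. The code was run on simulated data with known changes, drawn with the spreads of this same fit. That check cannot speak to counting error at low TPM or to the use of a single Cas9 clone. The 8 genes, the lists and the motifs were chosen with earlier results of these data known, and support nothing by their choice.

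Up to 4 genes with the largest called change were taken from each list, together with preset genes of the pathway (among them PYCARD, IL1B, IL18, CFLAR, APAF1, IRF1 and IRF2), up to 3 called neighbours within 500 kb, and the 3 genes nearest to the member with the largest change; not all are printed, and a few genes of the lists are not reported here. NINJ1, XIAP, CARD8, NEK7, NAIP and the untested list genes were named after their values were seen. Positions were taken from GENCODE release 44 on GRCh38 and promoters from RefSeq (GRCh38.p14). Python 3.11.15, pandas 2.3.3, scipy 1.17.1 and matplotlib 3.10.9 were used. Alternatives were pseudocounts of 1 and 0.01, no filter and a minimum mean of 5 TPM, median-ratio scaling, quantile normalization, the replicate number as a block, limma without trend, an unmoderated linear model, a fold threshold and each library left out in turn. The pseudocounts for the CASP1 to CASP4 and CASP8 to CASP10 ratios were added after the data were seen. No library was left out.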

Additional observations from a re-analysis of the deposited data

How the results depend on the processing

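Of 103 alternative fits of the 8 genes, 92 kept direction and call, 11 kept direction but lost the call and 0 changed direction; CASP1 could not be fitted with a minimum mean of 5 TPM. CASP4, CASP8 and CASP1 kept the call throughout, with log2 fold changes of 1.39 to 1.59, 0.55 to 0.79 and 1.46 to 3.58. Median-ratio scaling gave 0.10 for CASP2, 0.068 for CASP6 and 0.21 for CASP10 (adjusted p-values from limma of 0.08, 0.23 and 0.064), and 4 genes were called higher against 7. Quantile normalization gave 0.080 for CASP6 and 0.21 for CASP10. The unmoderated model gave 0.69 for CASP9 and 0.38 for CASP10 with adjusted p-values of 0.053 and 0.13. With each library left out in turn, CASP10 ranged from 0.25 to 0.50 and GSDMD from -0.20 to -0.19, and the number of genes called lower from 0 to 1. A fold threshold left 2 of the 8 higher and 0 lower, and 10 of the pathway list genes higher and 0 lower. Of all genes tested, 7.7% were called higher with it. Of the pathway list genes, 12 were lower with median-ratio scaling, 13 with quantile normalization and 5 in the unmoderated model, against 8. The lower share of all genes tested was 36.5% with median-ratio scaling, against 25.6%. Shares over all genes under quantile normalization and the unmoderated model are not given here.

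The median of all genes was -0.0016 (median-ratio), 0.0097 (quantile), 0.15 with a pseudocount of 1 and 0.20 without a filter. The CASP1 to CASP4 difference was 0.73 with quantile normalization and, with pseudocounts added after the data were seen, -0.082 for 1 and 2.02 for 0.01. Of 622 alternative fits of 49 other named genes, 584 kept direction and call, 25 lost the call, 6 gained one and 7 changed direction. CRADD lost it in 8, CD14 in 6, DFNB59 in 5, DFNA5 in 2, and HTRA2, LMNA, NLRP1 and TMEM82 in 1 each, while APAF1, CARD8 and NINJ1 gained it under both scalings. The direction changed for XIAP at -0.093 (median-ratio) and -0.10 (quantile), NEK7 at -0.086 and -0.074 and, with 1 library left out, NAIP (range -0.18 to 0.099) and NINJ1 (range -0.059 to 0.013, with 0.0000 in 1 fit). Fits without 1 library assume that the lone library varies like the others. The cause of these changes was not tested.

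Blocking on replicate number gave 7 genes called higher and 1 lower, as without it, and GSDMD had an adjusted p of 0.029 from limma. Same-numbered libraries deviated from their group means with a correlation of -0.044 across genes, so no shared deviation was seen. Whether same-numbered cultures were prepared together is not given, and this correlation cannot show it. TPM keeps no counts, so counting error in CASP1, CASP5 and other low genes is unknown.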

Other observations

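A few cytokine and sensor genes of the lists stayed under the mean of 1 TPM and were not tested. They were chosen because their groups did not overlap. Of all genes tested, whose mean reached 1 TPM, 56.8% were higher and 30.7% lower without overlap. The share among genes under that mean was not computed. IL18, a CASP1 substrate, was listed at 0.24 and 0.22 TPM in the sgNS libraries, against 0.62 and 0.94 TPM in METTL16 KO. IL33, an alarmin that executioner caspases inactivate, was listed at 0.34 and 0.58 TPM in the sgNS libraries, against 1.26 and 1.45 TPM in METTL16 KO. MEFV, the gene of the pyrin sensor, was listed at 0.02 and 0.04 TPM in the sgNS libraries, against 0.18 and 0.17 TPM in METTL16 KO. NLRC4, a further inflammasome sensor gene, went the other way, at 0.43 and 0.23 TPM in the sgNS libraries, against 0.12 and 0.20 TPM in METTL16 KO. At such levels the error of counting is unknown.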
